A study of Bos taurus with 2 samples.

Results

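The mitochondrially encoded transcripts were read from the probes that the array names COX2, COX3, CYTB, ND1, ND2, ND4 and ATP6. Probes were sought for 8 gene names, and 7 of them had a probe that was not a control, of 32429 gene names on the array. COX1, the other name sought, was carried by no probe. The 7 names held 20 of the 51282 probes, each printed as 1 spot, and every one of them was read on both arrays.

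The study compared testis of crossbred bulls (Holstein Friesian crossbred, 50 to 75% exotic inheritance) with testis of Zebu bulls of the Tharparkar breed, all aged 24 months. The testis came from unilateral castration of 3 bulls in each group, and the RNA of the 3 bulls was pooled before labelling, so the spread between animals was not measured. Each pool was copied from an oligo dT primer, labelled with Cy3 and hybridized to 1 array of 60-base probes, and both arrays lay on the same slide. With 1 array per group, no difference has a replicate check, the precision rests on this number of arrays, and no test was made. A probe is called detected on an array where the scanner software marked its spots as well above background.

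Mitochondria keep a small circular genome of their own, which encodes a few subunits of the respiratory chain and of ATP synthase together with the 12S and 16S ribosomal RNA and the transfer RNA that translate them. Both strands are transcribed as long precursors. Nuclear-encoded enzymes then cut these into the separate RNA and add poly(A) tails to most of the mRNA. In the testis, germ cells change the number and form of their mitochondria as they mature, and in the sperm the mitochondria are wrapped around the midpiece.

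A probe is a 60-base strand that captures labelled copies of its transcript, so its position and letters decide what it reads. Positions below follow the annotation of the array, which uses the build HGSC Btau_3.1. All 20 probes lay on the forward strand of the mitochondrial sequence, inside transcripts annotated as single protein-coding genes, and their GC content was 35 to 45%. The ND1 pair below shows the same stretch printed at distant places of the array, and the capitals mark the 44 bases that both probes hold. A_73_119316 covers chrM:3951-4010 and A_73_P053456 covers chrM:3967-4026.

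ND1 A_73_119316: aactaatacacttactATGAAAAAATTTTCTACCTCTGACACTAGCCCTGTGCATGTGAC
ND1 A_73_P053456: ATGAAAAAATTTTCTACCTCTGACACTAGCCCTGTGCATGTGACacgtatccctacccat

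The CYTB pair, A_73_P099916 on chrM:15444-15503 and A_73_112432 on chrM:15477-15536, shared 27 bases without a difference, again in capitals. It is shown because neither spot lay in a marked place of the array.

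CYTB A_73_P099916: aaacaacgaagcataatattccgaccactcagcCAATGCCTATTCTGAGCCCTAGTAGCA
CYTB A_73_112432: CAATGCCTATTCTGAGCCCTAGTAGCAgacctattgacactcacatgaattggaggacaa

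COX2 held the probe with the highest difference, so its 3 probes are shown. A_73_P097586 covers chrM:7740-7799 and overlaps neither of the others. A_73_102941 on chrM:7954-8013 and A_73_P097581 on chrM:7966-8025 share 48 positions and differ at 1 of them, in capitals, which is G41A when positions are counted from 1 at the first base of A_73_102941.

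COX2 A_73_P097586: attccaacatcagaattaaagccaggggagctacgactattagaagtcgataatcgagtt
COX2 A_73_102941: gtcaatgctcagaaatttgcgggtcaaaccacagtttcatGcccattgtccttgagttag
COX2 A_73_P097581: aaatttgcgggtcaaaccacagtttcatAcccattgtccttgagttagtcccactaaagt

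The COX3 pair, A_73_P097571 on chrM:9500-9559 and A_73_P053466 on chrM:9503-9562, shared 57 positions and differed at 3 of them, again in capitals. Counted from the first base of A_73_P097571, these are C22A, T34C and C35T.

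COX3 A_73_P097571: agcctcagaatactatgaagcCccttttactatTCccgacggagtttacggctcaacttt
COX3 A_73_P053466: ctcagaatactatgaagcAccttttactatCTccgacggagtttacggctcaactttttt

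Every value is the log2 of the processed signal after the 75th percentile of its array was subtracted, so a level of 0 is that percentile, and a difference is crossbred minus Zebu. A level is compared only with that of the same probe on the other array, because probes bind their targets unequally. Spots of the same probe, printed at several places, gave an SD of 0.33 for a difference over 5960 probes, which covers spotting, scanning and place on the array only. It was also 0.33 over the 1440 of these probes that were as bright as the dimmest mitochondrial probe or brighter. Spots in the marked places described below were kept in this SD, and their effect on it was not measured. For a level over the 5960 probes, the SD between spots was 0.29 on the crossbred and 0.18 on the Zebu array.

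The mRNA of the 7 mitochondrial gene names differed little between the crossbred and the Zebu pool. The median difference over the 20 probes was -0.09, with a range from -1.31 to 0.92. Of the 20, 18 lay within the SD of a difference between spots of the same probe. Some of the probes overlap, so they are not 20 separate readings. Outside these names and the marked places, a COX1 transcript probe (-0.57) and the ND6 probe (-0.55) exceeded that SD. The probes of ATP8, ND4L, ND5 and a COX1 clone did not. Over all 36443 probes detected on both arrays, the median was -0.06 and 37.7% lay within that SD. Among the 11055 probes whose mean level lay between those of the dimmest and the brightest mitochondrial probe, 39.8% did. The floor of that range is the ND2 probe (0.46 in crossbred and 0.40 in Zebu testis), well below the other 19 probes. The range is therefore not a match for the brightness of most of the 20.

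None of the 20 probes passed a log2 difference of 1.5, a fold of 2.83, against 9.13% of the 39804 probes detected on at least 1 array. At a log2 difference of 1, 1 of the 20 passed, against 20.5% of all. At a linear fold of 1.5, 1 probe was higher and 1 was lower in crossbred testis, against 42.8% of all. The probe that was higher reads COX2 and the probe that was lower reads ND1, and both are described with their genes below. Of the 20 differences, 7 were above 0 and 13 below, most of them by less than the tolerance between spots. With quantile normalization 4 were above 0 and 15 below.

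**Figure D1:**
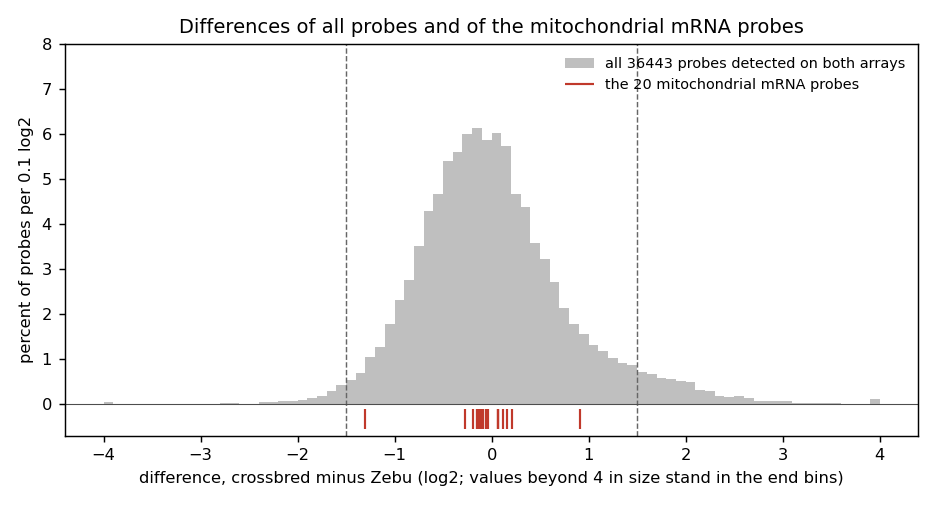
Percent of all 36443 probes detected on both arrays (grey) by their log2 difference, crossbred minus Zebu, with the 20 mitochondrial mRNA probes as red ticks below the axis and dashed lines at a difference of 1.5 in size. The ticks gather near 0, with 17 of 20 within 0.25 against 29.1% of all probes, and 1 tick stands apart on each side, at -1.31 and 0.92.

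All 20 probes were detected on both arrays and none was saturated. Their processed signals ran from 1621 to 207088 on the crossbred array and from 1628 to 201356 on the Zebu array, over local backgrounds of 31 to 47. Together these spots held 0.963% of the summed signal of the crossbred array and 1.05% of that of the Zebu array. The scanner software gave an error of 10% of the signal for each spot.

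ND1, ND2 and ND4 encode membrane subunits of complex I, which takes electrons from NADH and pumps protons. ND1 probe A_73_P099816, on chrM:3602-3662, had a level of 3.35 in crossbred and 3.49 in Zebu testis, a difference of -0.15. A_73_P053456 had 5.62 and 5.72, a difference of -0.09. These 2 ND1 probes lay far apart on the array, at row 229 and column 163 and at row 286 and column 46, and differed by less than the SD between spots.

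The remaining ND1 probe, A_73_119316, had 3.70 in crossbred and 5.0 in Zebu testis, a difference of -1.31, or 2.48 times more signal on the Zebu array. Its spot, at row 89 and column 44, lay in a place of the crossbred array where neighbouring spots of many genes were dark. That place spans rows 54 to 99 and columns 35 to 46, and its 408 spots detected on at least 1 array had a median of -1.37 for the difference, and 47.1% were lower by 1.5 or more. The 18 spots nearest to the ND1 spot had a median of -0.88 and ran from -3.70 to 0.13. A_73_P053456, which holds 44 of the same bases outside that place, differed by -0.09, so the differences of these overlapping probes were 1.22 apart. No other spot of the 20 probes lay there, and none lay in a bright place of the same array, which spans rows 153 to 167 and columns 50 to 56 and had a median difference of 1.29.

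**Figure D2:**
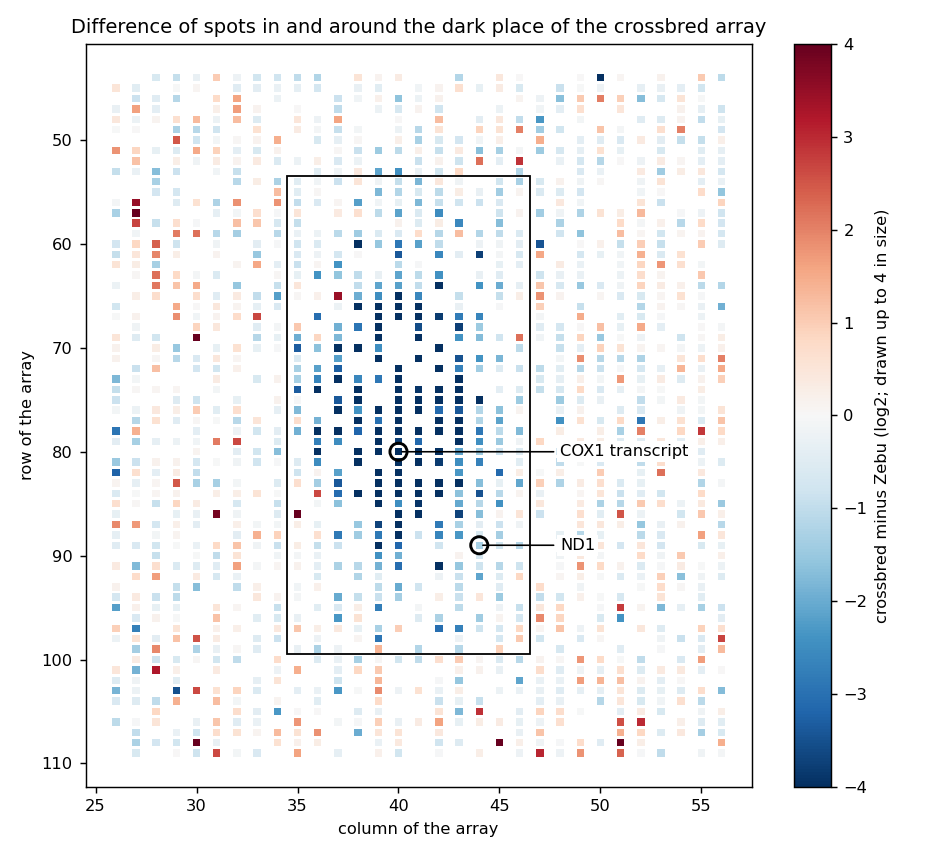
Rows and columns of the array around the dark place (black frame), where each square is a spot detected on at least 1 array and its colour is the log2 difference, crossbred minus Zebu, drawn up to 4 in size. The circled ND1 spot (-1.31) sits near the edge of the dark cluster and the circled COX1 transcript spot inside it.

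ND2 had a single probe, A_73_112497 on chrM:4479-4538, with 0.46 in crossbred and 0.40 in Zebu testis. ND4 probe A_73_103790, on chrM:11219-11278, had 3.34 and 3.40, and A_73_P097566, on chrM:11328-11387, had 4.08 and 4.02. The differences of these ND2 and ND4 probes were 0.06, -0.06 and 0.06, all within the tolerance. Over the 6 complex I probes the median difference was -0.07.

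CYTB encodes cytochrome b, the subunit of complex III in which electrons pass from ubiquinol to cytochrome c. A_73_P099786, on chrM:14920-14980, had 2.97 in crossbred and 2.90 in Zebu testis, a difference of 0.07. A_73_P099876, on chrM:15003-15062, had 4.05 and 4.16, a difference of -0.11. These 2 probes are the first along the gene and had opposite signs at sizes below the tolerance. A_73_P099706, on chrM:15358-15417, had 5.77 and 6.04, a difference of -0.28, the largest of CYTB. The overlapping pair printed above had 6.50 and 6.62 for A_73_P099916 and 6.40 and 6.50 for A_73_112432. Their differences, -0.12 and -0.09, were 0.02 apart, although the spots stood at row 25 and column 125 and at row 316 and column 9. The median over the 5 CYTB probes was -0.11.

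COX2 and COX3 encode subunits of complex IV, cytochrome c oxidase, which passes electrons to oxygen (this COX2 is not the cyclooxygenase of the same short name). COX2 probe A_73_102941 had 7.23 in crossbred and 7.35 in Zebu testis, and A_73_P097581 had 7.23 and 7.07. Their differences were -0.13 and 0.16, of opposite sign and both within the tolerance, for probes that share 48 positions. A_73_P097586 had 6.17 in crossbred and 5.25 in Zebu testis. It differed by 0.92, a ratio of 1.89. Its processed signal was 84449 on the crossbred and 46954 on the Zebu array. The spot stood at row 302 and column 14, outside both marked places, and its 18 nearest spots had a median difference of -0.54 and a highest value of 0.87. The 3 COX2 probes therefore spanned 1.04 on the log2 scale within a single transcript, and what sets A_73_P097586 apart was not tested.

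COX3 probe A_73_P097571 had 5.77 in crossbred and 5.96 in Zebu testis, and A_73_P053466 had 6.53 and 6.56. The differences of this pair, -0.19 and -0.03, were 0.16 apart for probes that differ at 3 bases. A_73_104424, on chrM:9671-9730, had 7.46 and 7.34, a difference of 0.12. All 3 lay within the tolerance, and the median over the 6 complex IV probes was 0.04.

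ATP6 encodes subunit a of ATP synthase, which forms the proton path through the membrane. A_73_P100376, on chrM:8628-8687, had 5.75 in crossbred and 5.90 in Zebu testis, and A_73_P100036, on chrM:8634-8692, had 5.55 and 5.64. Their differences were -0.15 and -0.08, and the probes cover almost the same stretch. A_73_P053461, on chrM:8908-8967, had 6.75 and 6.53, a difference of 0.21. All 3 differences were below the tolerance, and their median was -0.08.

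**Figure D3:**
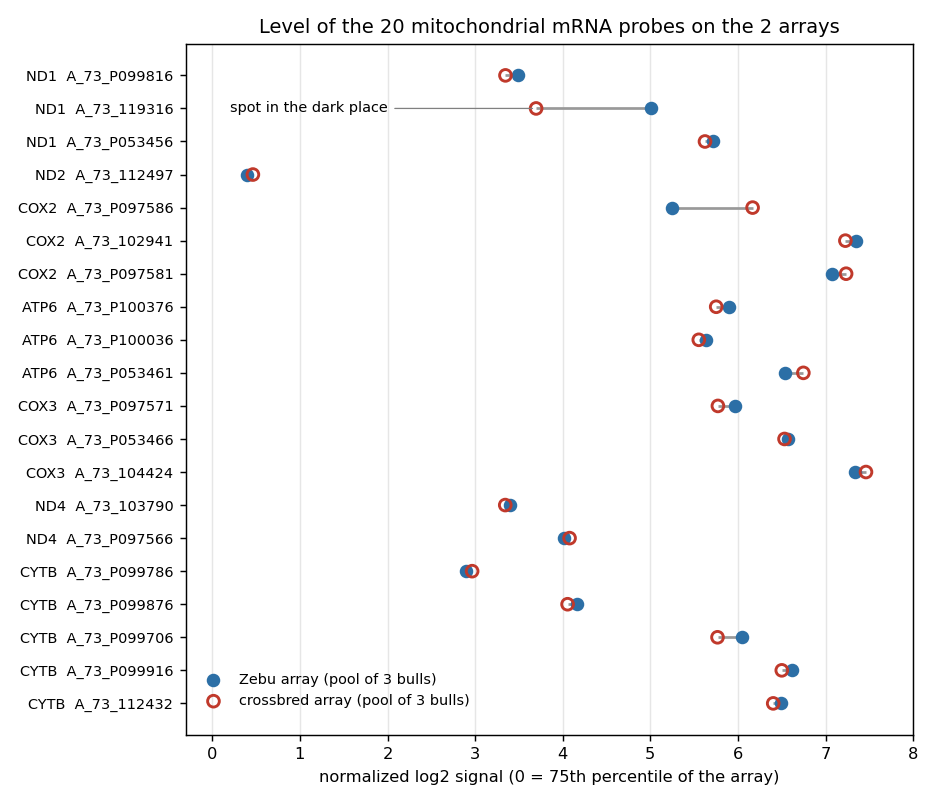
Normalized log2 signal of each of the 20 probes, in the order of their positions, on the Zebu array (filled blue) and on the crossbred array (open red), with a grey line between the 2 values of a probe. The circles nearly coincide for most probes, while ND1 A_73_119316 (3.70 and 5.0) and COX2 A_73_P097586 (6.17 and 5.25) are drawn apart, and values of different probes are not comparable.

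With the brightest probe standing for its gene, each of the 7 genes differed by less than the tolerance, from -0.13 for COX2 to 0.21 for ATP6. Read as the mean of all its probes, COX2 differed by 0.32 and ND1 by -0.52, each moved by the single probe named above.

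The other transcripts of the mitochondrial genome were described for context. In all, 52 probes in 54 spots were annotated to chrM. Among them, A_73_108527 on chrM:2964-3023 belonged to none of the kinds described below. It had 4.63 in crossbred and 4.82 in Zebu testis, a difference of -0.19. The transcript ENSBTAT00000060569, described by the array as cytochrome c oxidase subunit I and so the catalytic subunit that COX1 names, had 2 probes, and a clone described as COX1 mRNA, DQ347622, had 1. These probes are shown because the same transcript gave unlike values at unlike places.

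COX1 transcript A_73_P099546: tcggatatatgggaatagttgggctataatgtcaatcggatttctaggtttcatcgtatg
COX1 transcript A_73_103763: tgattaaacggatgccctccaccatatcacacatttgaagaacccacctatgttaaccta
COX1 clone A_73_P097576: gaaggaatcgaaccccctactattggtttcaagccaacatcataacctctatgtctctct

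A_73_P099546, on chrM:6489-6549, was not detected on the crossbred array, where the software wrote a surrogate of 4.68, and had a signal of 32494 on the Zebu array. It was at least 1447-fold lower on the crossbred array, taken against the lowest value of a detected probe there. Its spot, at row 80 and column 40, lay in the dark place, and all 18 of its nearest spots were lower by 1.5 or more, with a median of -7.56. Outside the dark place, A_73_103763, on chrM:7166-7225, had 6.38 in crossbred and 6.95 in Zebu testis, a difference of -0.57. A_73_P097576, on chrM:7237-7296, had 6.73 and 6.75, a difference of -0.02. These 2 probes lie next to each other in the gene, and only the first exceeded the tolerance.

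ATP8 encodes another membrane subunit of ATP synthase, and its probe was printed as 2 spots. They differed by -0.29 and 0.20, with a mean of -0.05, so that the sign turned between spots of the same probe. ND4L, a further complex I subunit, had 1.91 in crossbred and 1.61 in Zebu testis, and ND5 had 3.04 and 3.15. Their differences were 0.30 and -0.11. No probe carried the name ND3.

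ND6 is the complex I subunit encoded on the strand opposite to the other protein-coding genes, and its probe was the only one of a protein-coding gene on the reverse strand. Its 2 spots had -1.42 and -1.33 in crossbred and -0.72 and -0.93 in Zebu testis. The spots differed by -0.70 and -0.40, with a mean of -0.55 that exceeded the SD between spots and did not reach 1.5.

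The ribosomal RNA were read by clones that the array describes as similar to 12S or 16S rRNA. The 2 probes of 12S clones differed by 0.16 and 0.03. The 7 probes of 16S clones ran from -0.55 to 0.34 with a median of -0.32, and 5 of them were below 0. One of the 7, A_73_P100411 on chrM:986-1047 (0.12), shares 36 positions with A_73_P100416, the 12S clone probe on chrM:962-1021, so its place is at odds with its description. Without it the median over the other 6 was -0.34. Among the probes below 0, A_73_P100221, on chrM:2750-2807, had 5.33 in crossbred and 5.87 in Zebu testis, and A_73_P100287, on chrM:2656-2713, had 5.27 and 5.78. None of the rRNA probes reached 1.5 in size. The SD between spots was exceeded by A_73_P100221 (-0.55), A_73_P100287 (-0.51), A_73_P100216 (-0.37) and A_73_P100326 (0.34). The other rRNA probes lay within it.

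A further 15 probes of clones matched the reverse strand, most of them from clones described as similar to 16S rRNA and none under a gene symbol. Of these, 14 were detected on both arrays, with levels from -4.38 to 0.46 in crossbred and -4.61 to 0.10 in Zebu testis. Their differences ran from -0.85 to 0.79 with a median of 0.17, and 10 of the 14 were above 0. The lowest belonged to the clone AB098840, described as D-loop, on chrM:16117-16176.

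**Figure D4:**
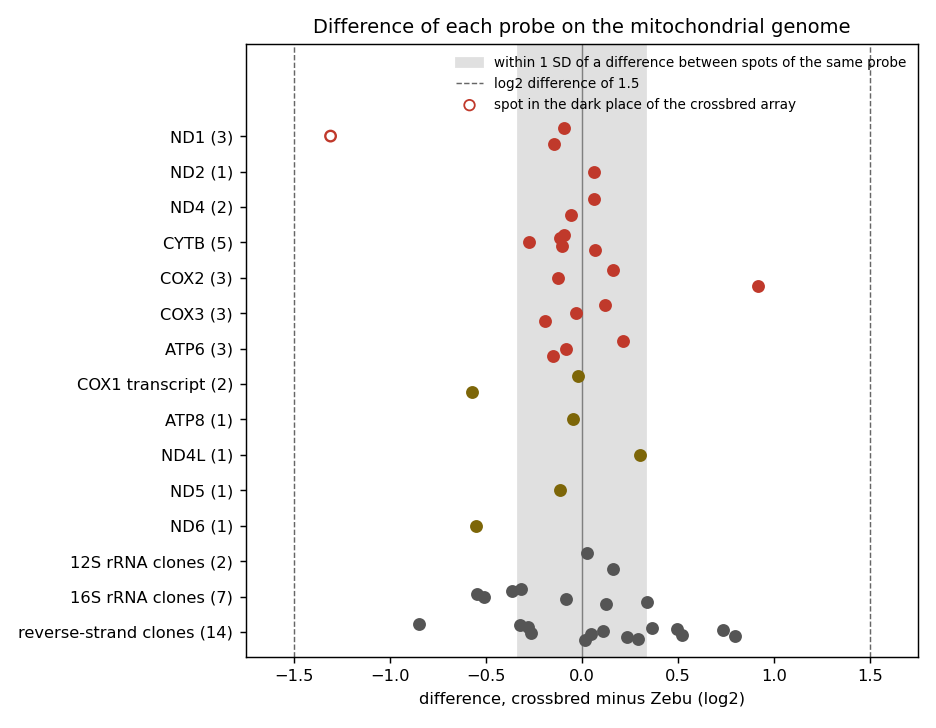
Log2 difference, crossbred minus Zebu, of probes on the mitochondrial genome that were detected on both arrays, by gene or kind with the number of probes in brackets. A_73_108527 (-0.19), of none of these kinds, is not drawn. Spots of a probe are averaged, the grey band is 1 SD of a difference between spots of the same probe (0.33) and the dashed lines are 1.5. The 7 genes (red) lie in the band except for 1 ND1 spot in the dark place and 1 COX2 probe, and the reverse-strand clones are spread from -0.85 to 0.79.

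Nuclear genes around mitochondrial gene expression formed a list of 44 names, chosen with earlier results of these data known. Besides genes that make, process or translate mitochondrial RNA, it held genes of mitochondrial DNA copying, complex IV assembly and nuclear regulators of transcription. Of the 44 names, 32 were on the array, several of the rest being later names of the same genes. Of these, 31 were detected on at least 1 array. By 1.5 or more, 1 was higher and 2 were lower in crossbred testis, against 7.23% higher and 2.99% lower among 24757 gene names. The median over the 30 detected on both arrays was -0.32, with 21 of them below 0. Over all 22828 such gene names the median was -0.04, with 11927 below 0.

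TFAM, which packages mitochondrial DNA and starts its transcription, was the gene of the list that was higher, with 4.63 in crossbred and 2.87 in Zebu testis, a difference of 1.76 on its only probe. PPARGC1A, a coactivator of mitochondrial biogenesis, was lower, with -5.39 and -3.74, a difference of -1.65, while another of its probes differed by 0.36 and the probe itself was at -0.69 with normexp background correction. Its level of -5.39 was near -5.78, the lowest of a probe detected on the crossbred array. FASTKD1, of a family that acts on mitochondrial RNA, was at least 38.3-fold lower, and its spot lay in the dark place. FASTKD3, of the same family, differed by -0.45 on its brightest probe. Its other probe, also detected on both arrays, differed by 2.51, so the counts hold for the brightest probes only.

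The polymerase and its partners differed by less. POLRMT, the RNA polymerase of mitochondria, had 2.01 in crossbred and 1.73 in Zebu testis, and TFB2M, its initiation factor, had 0.26 and 0.68. LRPPRC, which stabilizes mitochondrial mRNA, had 3.19 and 3.66. These differed by 0.27, -0.41 and -0.47. SSBP1, which binds single-stranded mitochondrial DNA, differed by -0.56, and POLG, the DNA polymerase, by -0.29. None of these 5 reached the threshold. On these brightest probes TFB2M, LRPPRC and SSBP1 exceeded the SD between spots, and POLRMT and POLG did not. TFAM, read from 1 spot, stood apart from them.

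Nuclear genes of the sperm mitochondria and midpiece formed another list, and all 17 were detected on both arrays. This list too was chosen with earlier results of these data known, so its values describe the listed genes only. By 1.5 or more, 5 were higher in crossbred testis and none was lower, against 7.23% higher and 2.99% lower among all gene names. The median was 0.94 and 16 of 17 differences were above 0, against a median of -0.04 and 10901 of 22828 above 0 over all gene names detected on both arrays. SMCP, a cysteine-rich protein of the sperm mitochondrial capsule, had 4.83 in crossbred and 2.77 in Zebu testis. SPATA19, a mitochondrial protein of spermatids, had 5.18 and 3.15, and SPATA18 had 3.72 and 1.32. ODF1, of the outer dense fibres, had 5.41 and 3.28, and TEKT4, a flagellar tektin, had 2.87 and 1.35. These 5 differed by 2.06, 2.03, 2.40, 2.13 and 1.52, and TEKT4 was at 1.45, below the threshold, with quantile normalization. The testis forms of 2 nuclear complex IV subunits were below the threshold, COX6B2 with a difference of 0.53 and COX7B2 with 0.89.

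The mRNA that the mitochondria make themselves had a median of 0.06 over the brightest probe of each of the 7 genes (-0.09 over all 20 probes), on the same 2 arrays on which the midpiece list, also read from the brightest probes, had 0.94. The difference between these medians was not tested, and the midpiece list was chosen with earlier results of these data known. In bulk tissue, more cells of a type and more RNA per cell cannot be told apart.

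Markers of the testicular cell types differed in both directions on the same arrays, and their counts past 1.5 stand beside the same 7.23% higher and 2.99% lower among 24757 gene names. All 6 spermatid markers were above 0, 4 of them by 1.5 or more (PRM2, TNP2, ODF1 and ACRV1), with a median of 1.69, and their summed level was 263 times the 75th percentile on the Zebu array and 495 times on the crossbred array. ODF1 belongs to this list and to the midpiece list. The 4 spermatocyte markers on the array had a median of 0.17, and the 6 spermatogonia markers had -0.66. Leydig cell markers had a median of -0.79 with CYP17A1 and HSD3B1, 2 of 6, lower by 1.5 or more, Sertoli cell markers -0.90 and peritubular and smooth muscle markers -0.77, none of the latter past the threshold. Of 4 macrophage markers 1, AIF1, was higher, and of the 2 red blood cell markers on the array HBA differed by -2.15, past the threshold, while HBB was not detected. Of the 3 epididymis markers on the array, CRISP1 and ADAM28 were not detected and DEFB119 differed by 0.38. Markers named here were chosen after their values were seen, and the part of these cell types in the mitochondrial values was not tested.

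**Figure D5:**
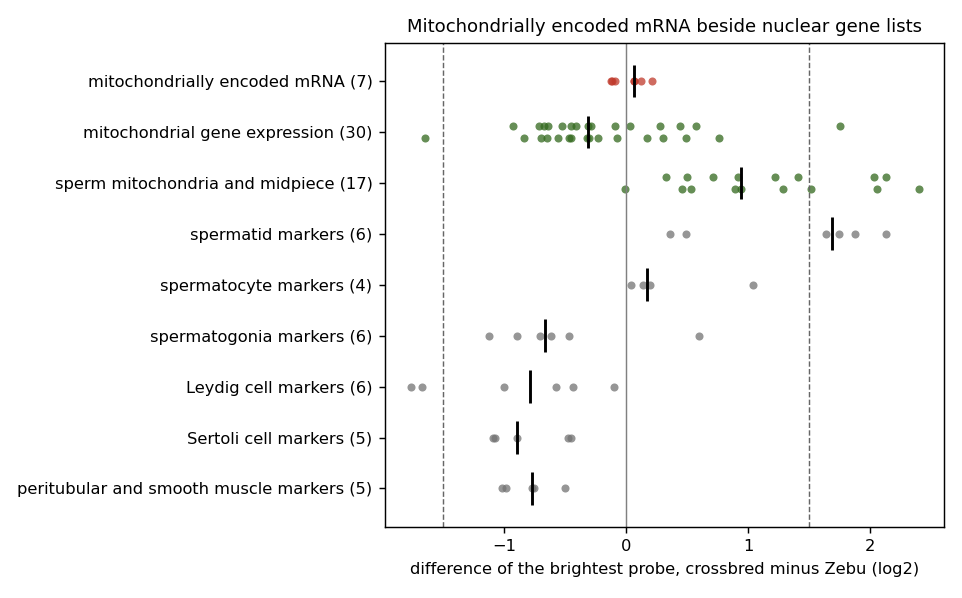
Log2 difference, crossbred minus Zebu, of the brightest probe of each gene (points), with the number of genes detected on both arrays in brackets, the median as a black bar and dashed lines at 1.5. The 7 mitochondrially encoded genes lie between -0.13 and 0.21, the midpiece and spermatid lists lie to the right (medians 0.94 and 1.69), and the Leydig, Sertoli and peritubular lists lie to the left.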

How the data were processed

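Testis RNA of 3 crossbred and of 3 Zebu bulls was pooled by group and measured on 1 array each. Per the file headers, Agilent Feature Extraction 11.5.1.1 made the deposited intensity of each spot, subtracting the background and detrending within the array. The authors also deposited log2 values, shifted by the 75th percentile of each array in GeneSpring GX 12.6, used here as an alternative. Control spots and 13 outlier spots were left out, no spot was saturated, and spots of a probe were averaged on the log2 scale. The 75th percentile over non-control probes, 1176 on the crossbred and 1233 on the Zebu array, was subtracted. A spot was detected where the scanner software flagged it as well above background (72.0% of crossbred and 74.3% of Zebu spots, controls excluded). The brightest probe, by mean signal, stood for a gene name, and a threshold was passed only if the brighter array detected the probe. The fold is a bound if the dim array did not. The named genes were every probe of the 8 gene names sought, the other mitochondrial mRNA, and, from the nuclear lists, each gene past the threshold with a few regulators and sperm subunits. Members and lists were chosen with earlier results of these data known. No replicate array exists, so neither a test nor leaving out an array was possible. Tried as alternatives were quantile normalization, normexp (offset 50), the median in place of the percentile, a percentile over probes detected on both arrays, the values of the authors, lower thresholds and other ways to combine probes. Probe averaging, scaling and the threshold were tested on simulated data in which every spot was detected and no place was dark. The detection rule, the fold bounds and the marked places were therefore not tested. The work used limma 3.58.1 in R 4.3.3, and numpy 2.4.6, pandas 2.3.3 and matplotlib 3.10.9 in Python 3.11.15.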

Additional observations from a re-analysis of the deposited data

How the results depend on the processing

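The median difference over the 20 mitochondrial mRNA probes lay between -0.17 and 0.06 under 9 alternatives, against -0.09, and moved by less than the SD between spots in each. That SD is for a single spot, so it is a wide bar for a median, here and for the lists below. It was -0.17 with quantile normalization, 0.06 with 1 brightest probe per gene and -0.08 without the spot in the dark place. Leaving out the filter on dim probes could not change it, because all 20 probes were detected. Taking the median, the other percentile or the values of the authors moved all probes by nearly the same amount. Those settings therefore say little about single probes. No probe passed a log2 difference of 1.5 under any background, scaling or source of values tried, while 1 passed at a log2 difference of 1 and 2 at a linear fold of 1.5. Of 100 values of single probes under these alternatives, all moved by less than the SD between spots, by at most 0.21, and 2 changed sign. The settings that moved all probes alike are among them. With all probes of a gene averaged, COX2 differed by 0.32 in place of -0.13, because A_73_P097586 entered, and ND1 by -0.52 in place of -0.09, because the spot in the dark place entered. In the list of mitochondrial gene expression, 1 gene in place of 2 was lower by 1.5 or more with normexp, PPARGC1A being lost at -0.69, and the cause was not tested. In the midpiece list, 4 genes in place of 5 were higher by 1.5 or more with quantile normalization, TEKT4 being lost at 1.45. The medians of both nuclear lists moved by less than the SD between spots. The number of arrays limits all of these values, and the SD between spots leaves out labelling, pooling and animals. No paired analysis was possible because each group had 1 array.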
